A study of Homo sapiens with 5 samples.

Results

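THUMPD1, THUMPD2, THUMPD3, NAT10 and TRMT112 were followed in RPE-1 cells, a human retinal pigment epithelial line immortalised with telomerase, after knockdown of FAM53C. The set was chosen by results of the same contrast, because THUMPD1 was much lower after the knockdown, and its members were found by their gene symbols. All 5 genes were present among the 64252 gene identifiers of the count table, and all 5 passed the filter on low counts together with 15341 genes in all. Raw counts were available for 3 libraries of cells given a control siRNA (siCtrl) and 2 libraries of cells given a pool of siRNAs against FAM53C (siFAM53C). Both groups were the same line, transfected with siRNA at 5 µM by the sample labels and collected at 48 hr, and no group was left untransfected. The labels do not say whether the replicates were separate cultures, so the p-values measure only the spread between these libraries, which may be technical.

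Acetylation of cytidine to N4-acetylcytidine is made by NAT10, an enzyme of the nucleolus and nucleus that acts on tRNA and on the RNA of the small ribosomal subunit. THUMPD1 has no known catalytic domain and serves as the tRNA adaptor of NAT10, through its THUMP domain, an RNA-binding fold named for thiouridine synthases, methyltransferases and pseudouridine synthases. THUMPD2 and THUMPD3 share this fold, but carry a methyltransferase domain and work with TRMT112, a small protein that activates and stabilises several methyltransferases of RNA and protein.

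The libraries held 24099968, 19694561 and 19260124 counts on genes in siCtrl and 25615415 and 22993116 in siFAM53C. The libraries were not separated by the siRNA alone. Principal component 1 of the log2 CPM (counts scaled to a common library total, with TMM factors) held 39.8% of the variance. On it, siFAM53C replicate 2 (44.9) and siCtrl replicate 3 (33.7) lay apart from siCtrl replicates 1 and 2 (-31.5 and -47.4), and siFAM53C replicate 1 was at 0.264, about midway. Differences were also taken within 2 sides: siFAM53C replicate 1 was set against the mean of siCtrl replicates 1 and 2, and siFAM53C replicate 2 against siCtrl replicate 3. This component does not place siFAM53C replicate 1 on either side, so its place with siCtrl replicates 1 and 2 is a choice, taken from an earlier analysis of these data, and the within-side values and the fit with a term for the side rest on it. The labels name no batch that matches these sides. The second side is the pair of libraries whose deposited columns carry the number 3, since siFAM53C replicate 2 of the labels is numbered 3 in its column name, and what that number marks is not stated.

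The label of the cells was compared with 17 marker genes. Of 9 markers of retinal pigment epithelium, RPE65, the visual cycle isomerase, had 0 counts in all 5 libraries, which allows up to 3 counts or 0.157 CPM in the shallowest library. RLBP1, TYR and TYRP1 had at most 2 counts in any library. The transcription factors MITF (713 to 1053 counts) and OTX2 (281 to 403 counts) were present, and MITF was the most abundant of the list. The 9 markers summed to 54.6, 54.1 and 69.3 CPM in siCtrl and 52.4 and 63.1 CPM in siFAM53C, so the groups overlapped. The keratins KRT8 and KRT18 and the mesenchymal genes VIM, FN1 and CDH2 were all present, with 2818 counts or more in every library. The 4 markers of simple epithelium, of which KRT8 was the most abundant, summed to 467, 430 and 384 CPM in siCtrl and to 499.98 and 502 CPM in siFAM53C, without overlap. KRT8 was at 0.32 (log2) and CDH2, which encodes N-cadherin, at -0.44, each without overlap between groups. Neither passed (adjusted p = 0.2225 and 0.2369 by edgeR with Benjamini-Hochberg adjustment). Of the 15341 genes tested, 16.7% lay above and 18.8% below without overlap. The groups overlapped for KRT18 (0.084), VIM (-0.14) and FN1 (0.13), and none of these passed. The 3 mesenchymal markers, with FN1 the most abundant, summed to 8533, 9415 and 11660 CPM in siCtrl and 8930 and 11011 CPM in siFAM53C, with overlap. The part of these markers in the results that follow was not tested. EPCAM and CDH1 reached at most 4 and 3 counts. The blood marker PTPRC had 20 counts in siCtrl replicate 3 and 2 to 5 in the others.

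The targeted gene fell in both siFAM53C libraries. FAM53C (ENSG00000120709) had 1434, 1141 and 1099 counts in siCtrl and 375 and 525 in siFAM53C. The groups did not overlap, and the difference was -1.71 on the log2 scale (SE 0.19; edgeR quasi-likelihood test, Benjamini-Hochberg adjusted p = 0.003625). It was -2.08 within the side of siFAM53C replicate 1 and -1.37 within that of replicate 2, with 14.2 and 22.3 CPM in these libraries.

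THUMPD1 (ENSG00000066654, chr16:20702816-20742084 of GRCh38, minus strand), the adaptor, had 1448, 1053 and 1212 counts in siCtrl and 357 and 347 in siFAM53C. As CPM these were 61.5, 55.1 and 63.5 in siCtrl and 13.5 and 14.7 in siFAM53C. Every siCtrl library lay far above both siFAM53C libraries, and the siFAM53C libraries lay close together. The mean went from 60.0 ± 4.38 (SD, n = 3) to 14.1 ± 0.872 CPM (SD, n = 2), which is 23.5% of the siCtrl mean. The log2 fold change was -2.09 (SE 0.13, 95% interval -2.39 to -1.79). It is given as a description, with no test, because this difference selected the set, and the interval takes no account of that choice. The value was -2.10 within each side of the libraries. THUMPD1 ranked 75th from the lowest among the log2 fold changes of 15341 genes, and 25th among the 9301 genes with a mean of at least 10 CPM. In bulk RNA, fewer cells with a transcript and less transcript per cell cannot be told apart. Of its exon bases, 135 lie opposite an unnamed gene and 112 lie within another unnamed gene on the same strand, and neither of these identifiers was in the count table.

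**Figure D1:**
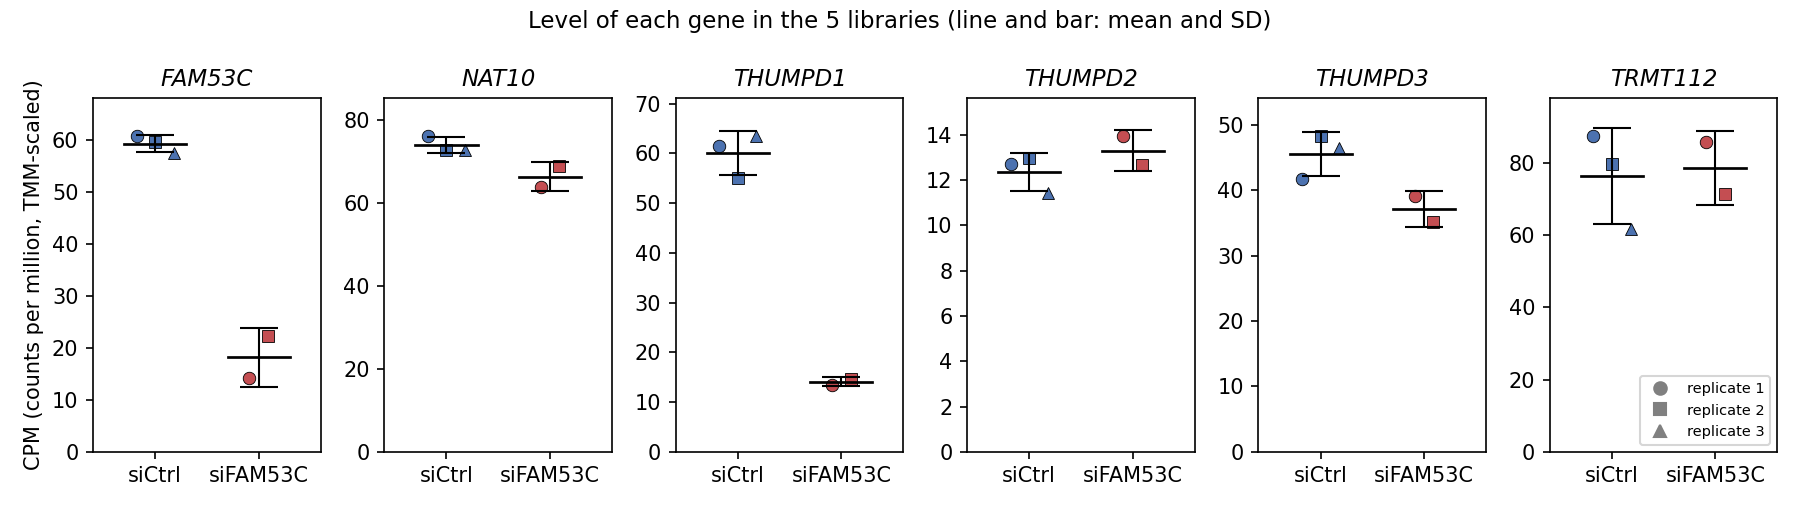
CPM of FAM53C and the 5 genes (y axis, from 0, a scale of its own per panel) in siCtrl (blue) and siFAM53C (red), with 1 point per library and the mean and SD as lines. THUMPD1 sits between 55.1 and 63.5 CPM in siCtrl and at 13.5 and 14.7 CPM in siFAM53C, while the points of THUMPD2 and TRMT112 overlap between groups.

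NAT10 (ENSG00000135372, chr11:34105617-34147670, plus strand), the acetyltransferase, did not pass the test. It had 1793, 1390 and 1389 counts in siCtrl and 1687 and 1620 in siFAM53C, or 76.1, 72.7 and 72.8 CPM against 63.8 and 68.8 CPM. Both siFAM53C libraries lay below all 3 siCtrl libraries, by a small margin. The mean was 73.9 ± 1.94 CPM (SD, n = 3) in siCtrl and 66.3 ± 3.53 CPM (SD, n = 2) in siFAM53C. Its log2 fold change was -0.16 (SE 0.10, 95% interval -0.39 to 0.080, adjusted p = 0.5026 by edgeR with Benjamini-Hochberg adjustment). Within the sides it was -0.22 and -0.082.

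The level of the adaptor beside its enzyme was compared per length, as RPKM (CPM per kilobase of the union of annotated exons). The THUMPD1 to NAT10 ratio was 0.649, 0.609 and 0.702 in the siCtrl libraries. In the siFAM53C libraries it was 0.170 and 0.172. The ratio restates the low THUMPD1 values that selected the set, with a nearly constant denominator.

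THUMPD3 (ENSG00000134077, chr3:9362971-9386791, plus strand) encodes the methyltransferase that, with TRMT112, makes N2-methylguanosine in tRNA. It had 984, 923 and 888 counts in siCtrl and 1035 and 828 in siFAM53C. As CPM these were 41.8, 48.3 and 46.5 in siCtrl against 39.1 and 35.1 in siFAM53C. The groups did not overlap, though siCtrl replicate 1 lay near siFAM53C replicate 1. The mean was 45.5 ± 3.38 CPM (SD, n = 3) in siCtrl and 37.1 ± 2.81 CPM (SD, n = 2) in siFAM53C. Its difference of -0.29 on the log2 scale (SE 0.12, 95% interval -0.58 to -0.011) had an unadjusted p of 0.04335 and an adjusted p of 0.2731 (edgeR, Benjamini-Hochberg), so it did not pass. Within the sides it was -0.20 and -0.40. Of the exon bases of THUMPD3, 1063 lie opposite other genes, among them THUMPD3-AS1 and SRGAP3, and the study's methods give reverse strandedness for the alignment but do not repeat it for the counting. THUMPD3-AS1, its antisense RNA, had 281, 296 and 422 counts in siCtrl and 394 and 455 in siFAM53C, with a log2 fold change of 0.052 (adjusted p = 0.9522 by edgeR with Benjamini-Hochberg adjustment). SRGAP3 had at most 5 counts in any library.

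THUMPD2 (ENSG00000138050, chr2:39736060-39779267, minus strand) encodes a methyltransferase that acts with TRMT112 on the U6 small nuclear RNA of the spliceosome. It had the fewest counts of the 5 genes in every siCtrl library, with 299, 248 and 218 in siCtrl and 369 and 298 in siFAM53C. The CPM were 12.7, 13.0 and 11.4 in siCtrl and 13.9 and 12.6 in siFAM53C, and the groups overlapped. The log2 fold change was 0.10 (SE 0.17, 95% interval -0.29 to 0.50, adjusted p = 0.8237 by edgeR with Benjamini-Hochberg adjustment).

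TRMT112 (ENSG00000173113, chr11:64316460-64317559, minus strand), the shared activator, had 2059, 1524 and 1177 counts in siCtrl and 2266 and 1679 in siFAM53C. It varied more within groups than the other members, with 87.4, 79.7 and 61.7 CPM in siCtrl and 85.6 and 71.3 in siFAM53C. The libraries of the second side, siCtrl replicate 3 and siFAM53C replicate 2, were the lowest of their groups. The log2 fold change was 0.040 (SE 0.17, 95% interval -0.34 to 0.43, adjusted p = 0.94 by edgeR with Benjamini-Hochberg adjustment), and it was 0.037 and 0.21 within the sides. The direction was not stable, since it turned to -0.083 without siCtrl replicate 3 and to -0.10 without siFAM53C replicate 1. TRMT112 shares 284 exon bases with ESRRA, a nuclear receptor gene on the opposite strand that was looked up after the values were seen. ESRRA had 40.3, 45.2 and 28.9 CPM in siCtrl and 48.9 and 46.9 CPM in siFAM53C. The siFAM53C libraries of ESRRA lay above all its siCtrl libraries, as they did for 16.7% of all genes tested. Its part in the TRMT112 values was not tested.

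Of the 4 members that did not decide the choice of the set, 0 passed the test in either direction, and at an unadjusted p under 0.05 THUMPD3 was lower and 0 were higher, where 10.5% of all genes tested were lower and 6.61% higher. Across all genes tested, 533 (3.47%) were called lower and 75 (0.489%) higher. Both siFAM53C libraries lay below all siCtrl libraries for 2 of these 4 genes, NAT10 and THUMPD3, and above them for 0. The same held below for 18.8% and above for 16.7% of all genes tested, and 4 genes are too few to be set against these shares. None of the 4 passed the test in any of the 13 other settings that were run, with adjusted p-values between 0.08177 (THUMPD3, with a term for the library side) and 0.9825 (THUMPD2). A p that misses the threshold does not show that a gene was unchanged; the intervals above give the sizes that the libraries allow.

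**Figure D2:**
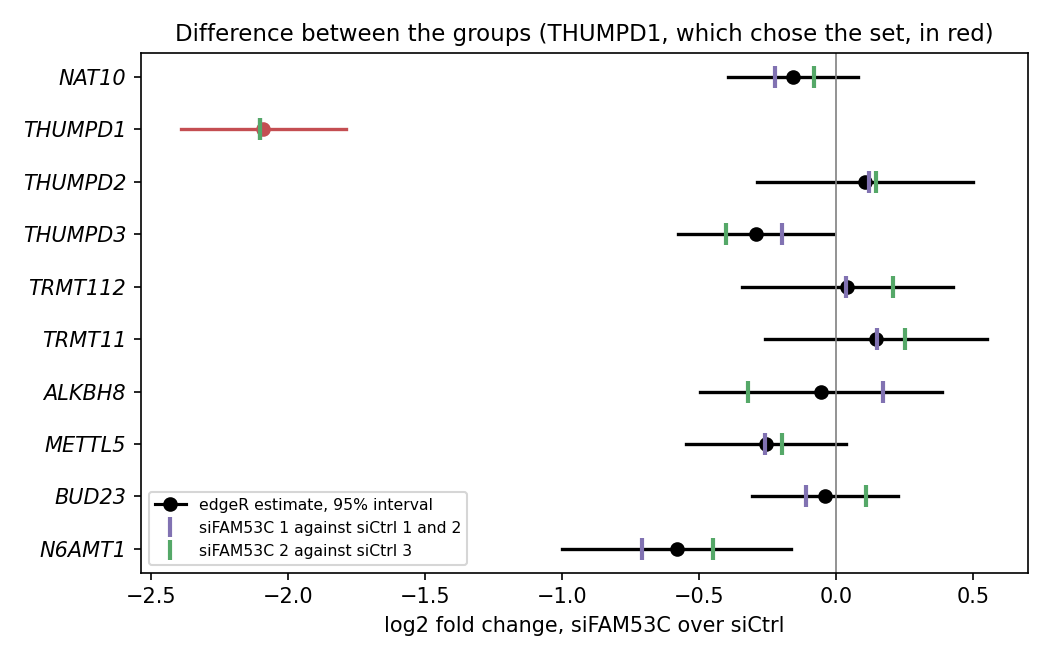
Log2 fold change of siFAM53C over siCtrl (x axis) for the 5 genes and the other TRMT112 partners, with the edgeR estimate and its 95% interval, and the differences within each side of the libraries as coloured ticks. THUMPD1, in red, whose difference chose the set, lies at -2.09, and its interval takes no account of that choice. The estimates of the other genes plotted run from -0.58 (N6AMT1) to 0.14 (TRMT11).

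Per length, TRMT112 was the most abundant of the 5 genes and THUMPD2 the least in siCtrl. The siCtrl means were 69.3 ± 12.01 RPKM (SD, n = 3) for TRMT112, 14.1 ± 0.371 for NAT10, 9.23 ± 0.674 for THUMPD1, 8.70 ± 0.645 for THUMPD3 and 3.23 ± 0.217 for THUMPD2. THUMPD1 (8.48 to 9.77 RPKM) and THUMPD3 (7.98 to 9.22 RPKM) overlapped and cannot be ordered by this length. The other neighbours were apart in every siCtrl library. In siFAM53C the means were 71.3 ± 9.25 RPKM (SD, n = 2) for TRMT112, 12.7 ± 0.675 for NAT10, 7.09 ± 0.537 for THUMPD3, 3.48 ± 0.240 for THUMPD2 and 2.17 ± 0.134 for THUMPD1. THUMPD1 was thus the lowest of the 5 in both siFAM53C libraries, below THUMPD2. With the length of the longest transcript in place of the exon union, the order of the siCtrl means was the same. By that length THUMPD1 (12.6 to 14.6 RPKM) lay above THUMPD3 (10.5 to 12.2 RPKM) without overlap in siCtrl, so their separation depends on the length used.

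The TRMT112 partners were then taken as a list of 7 methyltransferases, THUMPD2 and THUMPD3 among them, and all 7 were tested. Of these, 0 were called lower and 0 higher by edgeR and 0 by DESeq2 in either direction, beside 3.47% and 0.489% of all genes tested by edgeR. An unadjusted p under 0.05 was reached by 2 lower (THUMPD3 and N6AMT1) and 0 higher genes, where 10.5% of all genes tested were lower and 6.61% higher at that threshold. The median log2 fold change was -0.055, beside 0.016 over all genes tested. The groups did not overlap for 3 of the 7 partners, THUMPD3, METTL5 and N6AMT1, each with siFAM53C below siCtrl, where 18.8% of all genes tested lay below and 16.7% above in this way. A list of 7 genes is too short to be set against these shares.

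N6AMT1, which methylates a glutamine of the translation release factor eRF1, had the lowest log2 fold change of the partners. It had 13.3, 13.5 and 13.3 CPM in siCtrl and 8.16 and 9.68 CPM in siFAM53C. The siCtrl libraries were nearly equal and both siFAM53C libraries lower. The log2 fold change was -0.58 (SE 0.18, 95% interval -0.999 to -0.16) with an adjusted p of 0.1484 (edgeR, Benjamini-Hochberg), and it passed only with a term for the library side (adjusted p = 0.02375), which was 1 of the 13 other settings. Within the sides it was -0.71 and -0.45.

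METTL5 and BUD23 place methyl groups on the RNA of the small ribosomal subunit. METTL5, the adenosine methyltransferase, had 34.1, 35.1 and 31.0 CPM in siCtrl and 28.8 and 27.0 CPM in siFAM53C, and its log2 fold change was -0.26 (SE 0.13, adjusted p = 0.3543 by edgeR with Benjamini-Hochberg adjustment). BUD23, the guanosine methyltransferase, had 70.0, 67.3 and 59.1 CPM in siCtrl and 63.6 and 63.7 CPM in siFAM53C, with a log2 fold change of -0.041 (adjusted p = 0.9067). The siFAM53C libraries of METTL5 lay below its siCtrl libraries, and those of BUD23 lay among them.

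TRMT11 and ALKBH8 modify tRNA, TRMT11 by methylating a guanosine and ALKBH8 by methylating a modified uridine of the anticodon. TRMT11 had 18.3, 16.5 and 13.99 CPM in siCtrl and 19.3 and 16.7 CPM in siFAM53C, a log2 fold change of 0.14 (adjusted p = 0.7552 by edgeR with Benjamini-Hochberg adjustment). ALKBH8 had 15.03, 14.3 and 14.7 CPM in siCtrl and 16.5 and 11.8 CPM in siFAM53C, a log2 fold change of -0.055 (adjusted p = 0.9266). The groups overlapped for both, and the siFAM53C libraries of ALKBH8 lay on either side of the siCtrl libraries. Per length, TRMT112 stood at 0.875, 0.808 and 0.698 times the sum of its 7 partners in siCtrl and at 0.939 and 0.810 times in siFAM53C, again with overlap.

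**Figure D3:**
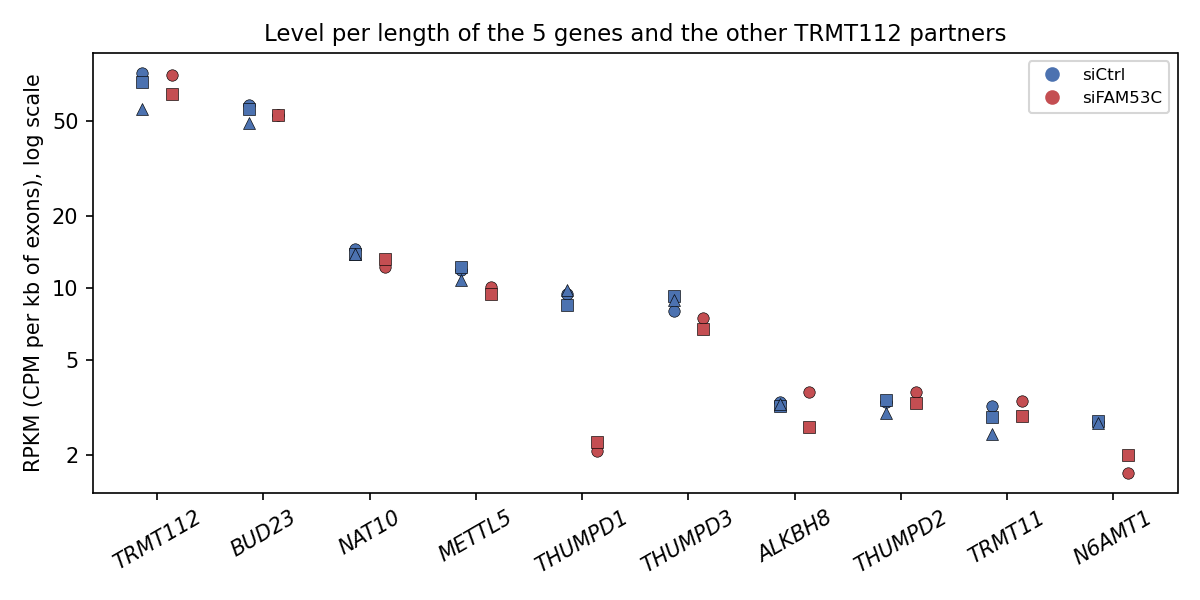
Level per length (y axis, RPKM on a log scale) of the 5 genes and the other TRMT112 partners, 1 point per library, siCtrl in blue and siFAM53C in red (circle, square and triangle for replicates 1, 2 and 3), ordered by the siCtrl mean. TRMT112 and BUD23 are the highest, and THUMPD1 drops from the levels of THUMPD3 to 2.08 and 2.27 RPKM, under those of THUMPD2.

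Pseudogenes and the guide RNA of NAT10 had few or no counts. How reads that match several places were counted is not given in the sources used here. THUMPD1P1, THUMPD3P1 and 6 TRMT112 pseudogenes (TRMT112P1, TRMT112P2, TRMT112P3, TRMT112P4, TRMT112P5 and TRMT112P7) had 0 counts in all 5 libraries, and TRMT112P6 had 1 to 4. SNORD13, the small nucleolar RNA that guides NAT10 on ribosomal RNA, also had 0 counts in each library. The libraries were made from polyadenylated RNA, in which a small nucleolar RNA is not expected to be retained, so this 0 says nothing of its level.

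Beyond the acetylation machinery, 88 genes of tRNA modification were listed, and 86 were tested. TRMT9B had 0 counts and GON7 at most 2. Of the 86, 2 were called lower and 1 higher by edgeR, 2.33% and 1.16%, beside 3.47% and 0.489% of all genes tested. These counts moved with the settings in both directions: 5 were lower and 2 higher with DESeq2, with no filter and with the replicate block by titles, 6 and 4 with the block by column names, 8 and 5 with the term for the side, 6 and 2 without siCtrl replicate 3, and 0 and 0 without either siFAM53C library. The counts over all genes of each fit moved as well. DESeq2 was run without the filter on low counts, as was the fit with no filter, so their counts are not over the 15341 genes. The counts were 890 lower and 257 higher with DESeq2, 961 and 375 with no filter, and 856 and 355 with the block by titles. They were 1350 and 642 with the block by column names, 1636 and 1037 with the side, and 886 and 414 without siCtrl replicate 3. The median log2 fold change was 0.022, and 40 of the 86 lay below 0. At an unadjusted p under 0.05, 8 were lower and 4 higher (9.30% and 4.65%), near the 10.5% and 6.61% of all genes tested.

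The 2 lower genes were TYW3 and METTL2A. TYW3, an enzyme of the wybutosine pathway that builds a bulky guanosine beside the anticodon of phenylalanine tRNA, had 34.5, 44.7 and 39.4 CPM in siCtrl and 18.03 and 17.8 CPM in siFAM53C. The groups were well apart, and TYW3 fell by 1.14 (log2; SE 0.15, adjusted p = 0.006923 by edgeR with Benjamini-Hochberg adjustment). Among the other enzymes of the pathway, grouped after their values were seen, TRMT5 (-0.25), TYW1 (-0.18), TRMT12 (0.56) and LCMT2 (-0.060) did not pass.

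METTL2A, which makes 3-methylcytidine in the anticodon loop of tRNA, had 27.1, 26.4 and 27.1 CPM in siCtrl and 15.3 and 14.2 CPM in siFAM53C. It fell by 0.86 (log2; SE 0.14, adjusted p = 0.01507 by edgeR with Benjamini-Hochberg adjustment). Of the other enzymes of this modification, METTL6 (-0.27, adjusted p = 0.5893) and METTL8 (0.21, adjusted p = 0.5786) did not pass by edgeR with Benjamini-Hochberg adjustment. The near-identical paralog METTL2B, picked out after its value was seen, had a log2 fold change of -0.58 (adjusted p = 0.05137). METTL2B was called lower in 6 of the 13 other settings, among them DESeq2 (adjusted p = 0.009238) and the fits with a replicate block by titles (0.02734) and by column names (0.01047), and how reads were split between the pair is uncertain.

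The gene called higher was ADAT3, which forms with ADAT2 the deaminase that makes inosine at the wobble position. It had 5.18, 4.45 and 4.77 CPM in siCtrl and 12.1 and 9.89 CPM in siFAM53C, and rose by 1.20 (log2; SE 0.22, adjusted p = 0.02604 by edgeR with Benjamini-Hochberg adjustment). ADAT3 lies within SCAMP4 and shares 771 exon bases with it on the same strand. SCAMP4 had a log2 fold change of 0.25 (adjusted p = 0.3828), and its part in the ADAT3 counts was not tested. ADAT2 was at 0.13 and ADAT1, which deaminates another adenosine of tRNA, at -0.091, and neither passed. The 6 subunits of Elongator, which modifies wobble uridines, lay between -0.084 and 0.12, with none called.

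NAT10 also acts on the small subunit RNA, and 60 genes of its maturation were listed. Of these, 59 were tested. AATF was listed at 0 in all 5 libraries, and whether it was not expressed or not counted was not tested. By edgeR, 3 were called lower (5.08%) and 0 higher, beside 3.47% and 0.489% of all genes tested. At an unadjusted p under 0.05, 5 were lower and 4 higher (8.47% and 6.78%), near the 10.5% and 6.61% of all genes tested, and DESeq2 likewise called 0 higher. Over all genes of its own fit, which did not use the filter on low counts, DESeq2 called 257 higher. With the side term 5 were called lower and 3 higher, where 1636 and 1037 of all 15341 genes tested were. With either replicate block 1 was higher, where 355 (by titles) and 642 (by column names) of all genes tested were. The median was -0.020, and 30 of the 59 lay below 0.

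The 3 lower genes were LTV1, UTP25 and RRP36. LTV1, an assembly factor of the small subunit, had 25.8, 29.98 and 25.5 CPM in siCtrl and 15.04 and 16.8 CPM in siFAM53C, and fell by 0.77 (log2; SE 0.15, adjusted p = 0.03433 by edgeR with Benjamini-Hochberg adjustment). UTP25, a component of the nucleolar processome, fell by 0.62 (SE 0.11, adjusted p = 0.02287, edgeR with Benjamini-Hochberg adjustment), from 60.7 ± 0.867 CPM (SD, n = 3) to 39.5 ± 2.79 CPM (SD, n = 2). RRP36, which takes part in the early cleavages of the precursor, fell by 0.57 (SE 0.11, adjusted p = 0.02887, edgeR with Benjamini-Hochberg adjustment), from 88.5 ± 2.23 CPM (SD, n = 3) to 59.6 ± 4.90 CPM (SD, n = 2). For each of these 3 genes both siFAM53C libraries lay below all siCtrl libraries, which is likely for genes called lower in the same libraries. The same held for 13 of the 59 tested genes of the list and for 18.8% of all genes tested. The enzymes that modify the small subunit RNA, a group drawn up after the values were seen, were DIMT1 (0.10), EMG1 (-0.22), TSR3 (0.099) and FBL (-0.030), besides NAT10, METTL5, BUD23 and TRMT112, and none passed.

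Leaving out certain single libraries removed these calls. Where a siFAM53C library was left out, the siCtrl libraries alone gave the spread, the lone library was assumed to vary like them, and the lower genes among all tested went from 533 to 157 and 199. TYW3 was then at -1.16 without siFAM53C replicate 1 and at -1.13 without replicate 2, and did not pass (adjusted p = 0.06781 and 0.05581 by edgeR with Benjamini-Hochberg adjustment). METTL2A, ADAT3, LTV1, UTP25 and RRP36 did not pass when siCtrl replicate 1, siCtrl replicate 2 or either siFAM53C library was left out, with adjusted p-values up to 0.1406, 0.2536, 0.262, 0.2073 and 0.252. Each of the 6 genes kept its direction in all 13 other settings.

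**Figure D4:**
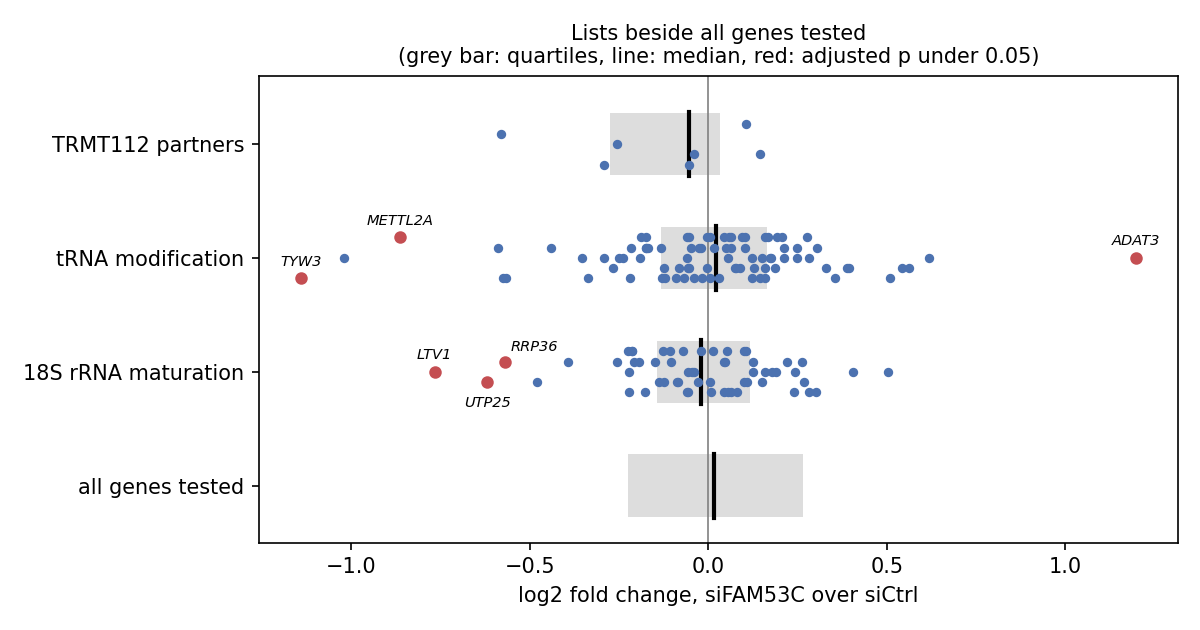
Log2 fold changes of siFAM53C over siCtrl (x axis) for the tested genes of each list (points, spread vertically for clarity), with the quartiles as grey bars and the median as a line, beside the quartiles and median of all 15341 genes tested. The medians of -0.055, 0.022 and -0.020 lie near that of all genes, 0.016, and the 6 named red points are the genes called.

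The 3' UTR of THUMPD1 was examined for GACAAGA, a heptamer that an earlier analysis of the same contrast had picked out because genes that hold it were lower. It is therefore not independent of the values above and was only located. It was searched on the transcript strand of the longest annotated 3' UTR of each gene, and 1400 of 12075 tested genes with such a UTR held it (11.6%). THUMPD1 held it 2 times in 3216 bases, where 17.6% of tested genes with a UTR within 20% of that length held it and 1.41% held it 2 or more times. THUMPD3 held it 2 times in 2103 bases, where 11.7% of genes of like length held it and 0.755% held it 2 or more times. N6AMT1 held it 3 times in 4194 bases, where 21.8% of genes of like length held it and 2.52% held it 2 or more times, and FAM53C held it 1 time in 2770 bases, where 16.2% held it. THUMPD2, NAT10, TRMT112, TRMT11, ALKBH8, METTL5 and BUD23 held it 0 times, in UTRs that were shorter than those of THUMPD1 and THUMPD3. Members with the heptamer were THUMPD1 and THUMPD3, which differed in size by -2.09 against -0.29. A match is only a run of letters, and its part in these values was not tested.

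The matches in THUMPD1 and THUMPD3 are shown with 10 bases on each side, since these are the members of the family that hold the heptamer, along with that of the targeted gene. They are read from hg38 on the transcript strand, with the heptamer in capitals. The THUMPD1 windows are chr16:20736049-20736075 and chr16:20735091-20735117 (minus strand), those of THUMPD3 are chr3:9385109-9385135 and chr3:9386536-9386562 (plus strand), and that of FAM53C is chr5:138347128-138347154 (plus strand).
THUMPD1, first match: acagccacttGACAAGAaaggatattc
THUMPD1, second match: ttcttaaagcGACAAGActcttagatc
THUMPD3, first match: cagcctgtgcGACAAGAgcgaaactct
THUMPD3, second match: ataaaaatttGACAAGActgatacaaa
FAM53C: gactggccggGACAAGAtaaacggagc

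Genes with the pattern most like that of THUMPD1 were sought among 8973 tested protein-coding genes outside the set with a mean of at least 10 CPM. Likeness was the root mean square difference of log2 CPM, each taken from the gene's own mean over the 5 libraries, and it carries no test. The nearest were SDAD1 (0.059), MIGA1 (0.065), GXYLT1 (0.093), ME2 (0.14) and ANTXR2 (0.14). Their log2 fold changes lay between -2.14 (SDAD1) and -1.90 (ME2). SDAD1 is a nucleolar protein, MIGA1 a protein of mitochondrial fusion, GXYLT1 a xylosyltransferase, ME2 the mitochondrial malic enzyme and ANTXR2 an anthrax toxin receptor. SDAD1, the nearest, had 35.1, 31.9 and 40.4 CPM in siCtrl and 7.75 and 8.45 CPM in siFAM53C. These genes were picked on the same 5 libraries, so their like fold changes and order of libraries follow largely from the choice. The heptamer GACAAGA was held 0 times by the longest 3' UTRs of SDAD1 (835 bases) and GXYLT1 (5941 bases), where 3.73% and 27.0% of tested genes of like length held it. MIGA1 held it 1 time in 4476 bases, where 23.1% held it. ME2 and ANTXR2 held it 2 times each, in 7073 and 6283 bases, where 7.09% and 5.46% held it 2 or more times.

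The nearest to NAT10 were ACOT7 (0.014), TLK2 (0.021) and TMEM11 (0.023), with log2 fold changes of -0.15, -0.19 and -0.18. ACOT7, an acyl-CoA thioesterase, had 121, 118 and 118 CPM in siCtrl and 104 and 111 CPM in siFAM53C. TLK2 is a nuclear kinase and TMEM11 a mitochondrial membrane protein. With 5 libraries in 2 groups, many genes share such a pattern.

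**Figure D5:**
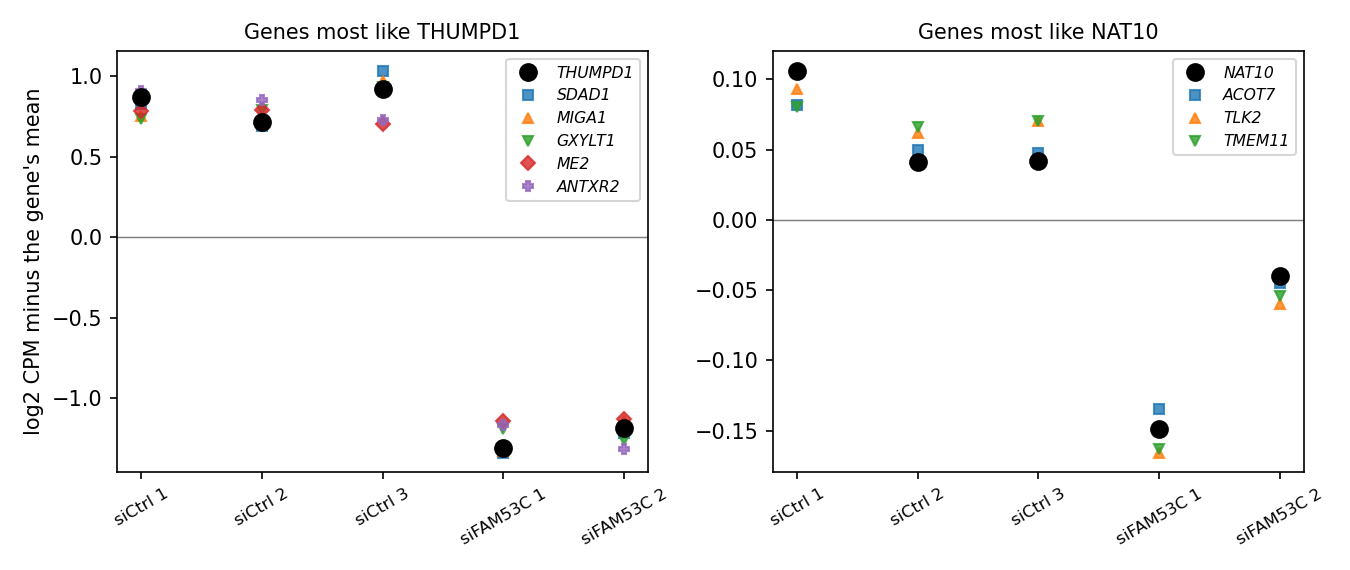
Log2 CPM minus the gene's own mean (y axis) in each of the 5 libraries (x axis) for THUMPD1 and its 5 nearest genes (left) and for NAT10 and its 3 nearest (right). The panels have separate y scales, the left being much wider. In siCtrl replicate 3 the genes of the left panel spread from 0.70 (ME2) to 1.03 (SDAD1), with THUMPD1 at 0.92.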

How the data were processed

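Raw counts per gene of 5 RPE-1 libraries were analysed. The authors made them with cutadapt 2.10 for trimming, HISAT2 for alignment to hg38 and featureCounts, and deposited the counts without normalization or filtering. The alignment is described as reverse-stranded in the methods; the strand setting of the counting and the annotation release are not given in the sources used here. Conditions came from the labels. The methods state duplicates, but 3 siCtrl columns were mapped by name and all were used. Of the 64252 identifiers, 56105 had a GENCODE 44 symbol.

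Counts were fitted in R 4.3.3 with edgeR 4.0.16 (filterByExpr with minimum count 10 and minimum total 15, TMM factors, quasi-likelihood test, Benjamini-Hochberg over 15341 genes, threshold 0.05, log2 CPM with prior count 2). glmQLFit was run with robust estimation. The default without it was run first (493 genes lower, 62 higher); robust estimation (533 and 75) was taken after both results were seen, because it matched an earlier analysis of these counts. Alternatives used DESeq2 1.42.0, limma-voom (limma 3.58.1), other scaling and filters, replicate blocks, a term for the library side and each library left out. The scripts were tested on simulated data; the number of recovered genes required there was lowered after the first run, so it is no evidence of power.

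Members and lists were chosen with earlier results of these data known. The groups of enzymes by pathway, METTL2B and the overlapping genes were chosen after their values were seen. Named genes were FAM53C, the members, related loci, all TRMT112 partners, up to 6 called genes a direction in each other list, and the 5 and 3 genes nearest in pattern to THUMPD1 and NAT10.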

Additional observations from a re-analysis of the deposited data

How the results depend on the processing

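Depth and 5 libraries limit these values: a gene of about 12 CPM such as THUMPD2 had 218 to 369 counts, and the counts of called genes moved widely with the settings. Of the 13 other settings, edgeR without robust estimation was added after both versions had been seen, and gave 493 genes lower and 62 higher. The direction held in all of them for FAM53C (-2.07 to -1.42, called in 13 of 13), THUMPD1 (-2.16 to -2.02), THUMPD2 (0.027 to 0.18), THUMPD3 (-0.38 to -0.22) and NAT10 (-0.21 to -0.086), and was lost for TRMT112 (-0.10 to 0.16, both ends with a library left out).

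Lower genes numbered 533, and 890 with DESeq2, 961 with no filter, 856 with a replicate block by titles, 1350 with a replicate block by column names, 1636 with the term for the side, and 157 (without siFAM53C replicate 1) to 886 (without siCtrl replicate 3) with a library left out. Higher genes numbered 75, and 257 with DESeq2, 121 with total counts only, 375 with no filter, 355 and 642 with the replicate blocks, 1037 with the side, and 6 (without siCtrl replicate 2) to 414 (without siCtrl replicate 3) with a library left out. Lower tRNA modification genes numbered 2, and 5 with DESeq2, no filter and the block by titles, 6 with the block by column names, 8 with the side, and 0 to 6 with a library left out. Higher ones numbered 1, and 2 with DESeq2, total counts only, no filter and the block by titles, 4 with the block by column names, 5 with the side, and 0 to 2 with a library left out. Small subunit genes lower numbered 3, and 5 with the side and 0 to 3 with a library left out; those higher numbered 0, and 1 with either replicate block and 3 with the side. TRMT112 partners lower numbered 0, and 1 with the side. RRP36 was not called with total counts only (adjusted p = 0.05126 by edgeR with Benjamini-Hochberg adjustment). The causes were not tested.

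TRMT112 reversed to -0.095 with the replicate block by titles (adjusted p = 0.6944 by edgeR), and to -0.083 and -0.10 without siCtrl replicate 3 and without siFAM53C replicate 1. The numbers do not establish pairs: deviations of same-numbered libraries correlated at 0.17 (replicates 1) and -0.29 (replicates 2) by titles, and at 0.37 for siCtrl replicate 3 with siFAM53C replicate 2, paired by column names. The replicate block changed no call of a member. Within the sides, FAM53C was -2.08 and -1.37, THUMPD3 -0.40 in the second, and NAT10 -0.22 and -0.082. With the longest transcript as length, the siCtrl levels were 92.7 RPKM for TRMT112, 18.6 for NAT10, 13.8 for THUMPD1, 11.5 for THUMPD3 and 3.93 for THUMPD2.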
